A study of Mus musculus with 6 samples.

Results

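The semaphorins are a family of guidance ligands, and plexins and neuropilins are the receptors that read them. Their genes were taken from the retina files by symbol: names that start with Sema and a digit from 3 to 7, names that start with Plxn, and Nrp1 and Nrp2. This gave 31 genes of the 22173 listed, 20 ligands and 11 receptors. RNA came from whole retina of wild-type C57BL/6J mice at postnatal day 17. The 3 Control libraries were from pups kept in room air. The 3 libraries of oxygen-induced retinopathy (OIR) were from pups that breathed 75% oxygen from day 7 to day 12 and room air from then to day 17, a regimen that first stops retinal vessel growth and then leaves a hypoxic retina in which abnormal vessels form. The labels name no sex, litter or pooling of animals, so p-values measure the spread between these libraries, which may be in part technical.

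Semaphorins carry a sema domain that binds plexins, and a bound plexin acts inside the cell on small GTPases and on the cytoskeleton, most often to turn a growing process away. The secreted class 3 ligands mostly need a neuropilin beside the plexin, whereas Sema3E binds Plexin-D1 directly. Neuropilins also bind vascular endothelial growth factor. In the retina the family is known both for placing neuronal processes in their layers and for holding vessels back from ischaemic tissue.

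Values are RPKM, reads scaled to gene length and to library depth, and every ± is an SD over 3 libraries. Genes that reached 1 RPKM in 3 or more libraries were tested with limma on log2(RPKM + 1), and every adjusted p is Benjamini-Hochberg adjusted over all of them. Fold changes are OIR over Control. Whole reads could be recovered from the steps of the values, and tests on recovered reads used limma-voom. The libraries held 35615501 to 38025623 reads. Lens marker genes, most of them crystallins, took 6.91% of the reads in Control 3, 0.593% in OIR 2 and 0.0219% to 0.0679% in the other libraries. Both lens-rich libraries were kept. Defining markers of neurons and glia of the retina were present in the values, with the Müller glia gene Glul at 1290 ± 103 RPKM and the amacrine cell gene Gad1 at 84.6 ± 6.12 RPKM in Control.

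Of the 25 members that reached the level for testing, 10 were higher in OIR, 1 was lower and 14 did not pass an adjusted p of 0.05. All 25 lay at 1 RPKM or above in all 6 libraries. Over all 12112 genes tested, 11.6% were called higher and 7.22% lower, against 40% and 4% of the tested members. Among 15 tested ligands 5 were higher (Sema3b, Sema3f, Sema4b, Sema4g and Sema5b) and 1 was lower (Sema3e). Among 10 tested receptors 5 were higher (Plxnd1, Plxnb2, Nrp1, Plxna2 and Plxnb1) and 0 were lower with limma, where 1 was lower at an unadjusted p under 0.05 (Plxnc1) and 1, the same gene, on recovered reads with limma-voom over the same genes. The median log2 fold change was 0.16 for the tested ligands, 0.28 for the tested receptors and 0.03 for all genes tested. The 3 Control and 3 OIR values did not overlap in 16 of the 25 tested members, 13 with OIR above and 3 with OIR below, where 38.7% of all genes tested did so (23.6% with OIR above and 15% with OIR below). Scaling by median of ratios left the member counts as they were, while over all genes it called 1283 higher and 1312 lower, against 1407 and 875. Most of the changes were small: Plxnd1 alone reached a 2-fold change on the log2 scale of the test. Without Control 1, Control 2, OIR 1 or OIR 3 the number of higher receptors was 3, 3, 2 and 3, and 6 ligands were higher without OIR 2.

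**Figure D1:**
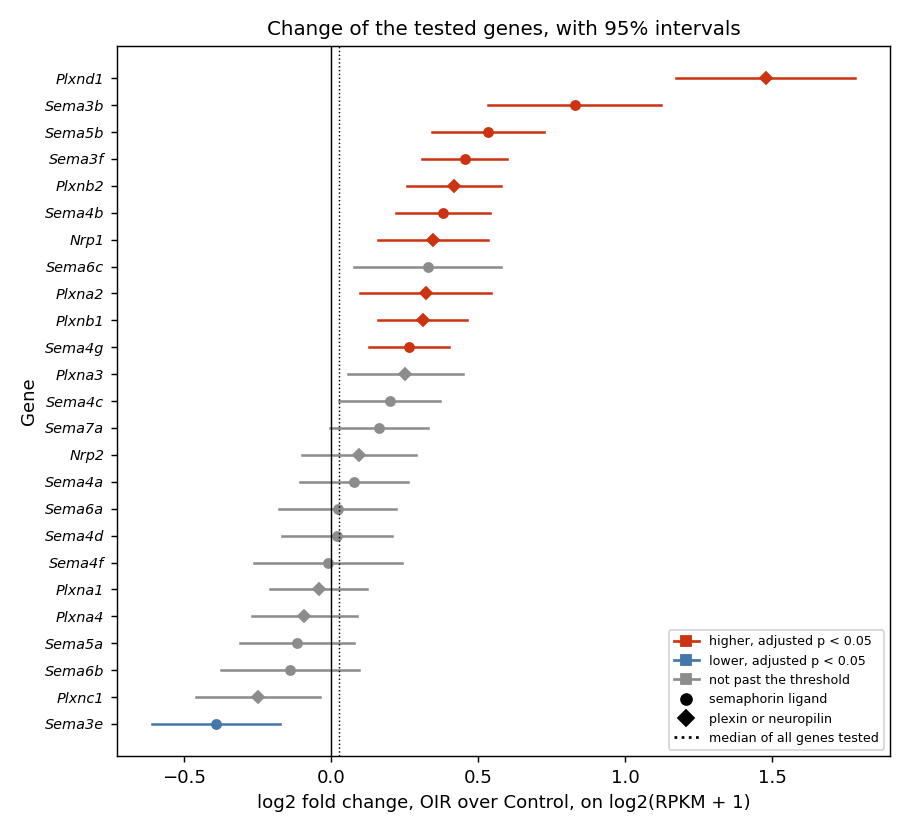
Log2 fold change of OIR over Control on log2(RPKM + 1), with its 95% interval, for the 25 tested genes in order of size; circles are ligands, diamonds receptors, red and blue mark genes past the threshold and the dotted line is the median of all genes tested. Plxnd1 stands at 1.48, Sema3b at 0.83 and Sema3e at -0.39.

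Plxnd1, the gene of the endothelial receptor Plexin-D1, changed most. It measured 3.12, 2.05 and 2.30 RPKM in the Control libraries against 9.26, 7.12 and 9.80 RPKM in OIR 1, OIR 2 and OIR 3. Each OIR library was above each Control library, and OIR 2 was the lowest of the OIR libraries. The means were 2.49 ± 0.561 and 8.73 ± 1.41 RPKM, a ratio of 3.50, and the log2 fold change on the log2(RPKM + 1) scale was 1.48 (SE 0.136, adjusted p = 0.000294). Sema3e, the gene of its direct ligand Sema3E, went the other way. It measured 4.19, 3.68 and 3.24 RPKM in the Control libraries against 2.28, 2.66 and 2.80 RPKM in OIR 1, OIR 2 and OIR 3, with no overlap between the groups. The log2 fold change of Sema3e came to -0.39 (SE 0.0988, adjusted p = 0.0218). Per length of gene, Sema3e was above Plxnd1 in all 3 Control libraries and below it in all 3 OIR libraries. The ratio of Plxnd1 to Sema3e was 0.671 ± 0.101 in Control and 3.41 ± 0.70 in OIR (two-sided exact permutation p of 0.1, the smallest that 3 against 3 allow, and 0.117 adjusted over the 7 ratios tested in this way). Plxnd1 remained called in every fit that left out 1 library, at adjusted p of 1.44e-06 to 0.00746. The call of Sema3e ended without Control 1, Control 2 or OIR 1, at 0.0934, 0.0586 and 0.102, and with no filter on low values, at 0.0519. In whole retina, fewer cells of a type and less RNA per cell cannot be told apart.

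The window before the annotated start is shown for Plxnd1 and Sema3e, the pair that moved apart, and for Sema4b. Sema4b is a called ligand picked because core letters of the hypoxia response element lie before its start. The sequences are from RefSeq on GRCm38.p6, read 5′ to 3′ on the strand of the gene, at chr6:115995006-115995255 (minus strand), chr5:14025026-14025275 (plus strand) and chr7:80186620-80186840 (plus strand, ended before the first GENCODE M21 exon). Capitals mark ACGTG or GCGTG on either strand, the core to which hypoxia-inducible factors bind.
Plxnd1: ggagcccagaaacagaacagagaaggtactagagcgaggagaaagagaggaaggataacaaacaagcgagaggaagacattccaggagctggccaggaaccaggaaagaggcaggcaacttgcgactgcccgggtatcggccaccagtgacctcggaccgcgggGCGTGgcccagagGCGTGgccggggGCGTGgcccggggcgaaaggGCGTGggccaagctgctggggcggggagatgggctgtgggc
Sema3e: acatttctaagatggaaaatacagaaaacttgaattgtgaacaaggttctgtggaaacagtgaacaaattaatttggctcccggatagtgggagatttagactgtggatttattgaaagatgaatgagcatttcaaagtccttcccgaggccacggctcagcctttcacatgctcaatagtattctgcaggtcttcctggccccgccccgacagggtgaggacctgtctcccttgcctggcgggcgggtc
Sema4b: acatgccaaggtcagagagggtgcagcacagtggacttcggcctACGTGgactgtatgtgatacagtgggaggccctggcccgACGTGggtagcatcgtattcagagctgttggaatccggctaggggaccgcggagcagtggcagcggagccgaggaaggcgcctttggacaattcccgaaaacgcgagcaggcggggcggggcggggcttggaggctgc
The Plxnd1 window held GCGTG 4 times and no ACGTG. With this count of Plxnd1 itself taken as the limit, 0.846% of 32851 RefSeq windows of 250 bases held GCGTG at least 4 times. The Sema3e window held neither ACGTG nor GCGTG, and the Sema4b window held ACGTG 2 times. Of the other members called higher, Nrp1, Plxna2, Sema4g and Sema5b had GCGTG in a window, and Plxnb1 and Plxnb2 had neither core. Of the other members with all OIR values below Control, Sema3c, Sema5a and Plxnc1 had GCGTG, and Sema3a and Sema3d had neither core. G and C made up 64.8% of the Plxnd1 window and 48.0% of the Sema3e window. The shares over all windows and genes were not matched for this. Windows were found for 26 of the 31 members, 37 in all, and not for Sema3b, Sema3f, Sema6a, Plxna1 and Plxna4. Counting both strands, ACGTG was in 18.9% of the member windows and in 16.6% of all windows. GCGTG was in 35.1% of the member windows and in 28.2% of all windows. Counted by gene, since some genes have several windows, ACGTG was found for 23.1% of the matched members and 18.5% of all 27025 genes. GCGTG was found for 13 of the 26 matched members and 30.9% of all genes. CACGTG holds ACGTG on both strands and was counted at each. These matches are letters in a window and show neither binding nor its absence.

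Nrp1, the gene of the receptor that Sema3A and vascular endothelial growth factor share, rose, and its paralogue Nrp2, which prefers Sema3F, did not pass. Nrp1 measured 1.42, 1.37 and 1.38 RPKM in the Control libraries against 2.23, 1.88 and 2.03 RPKM in OIR 1, OIR 2 and OIR 3. The Control values lay close together and all 3 OIR values were above them. The log2 fold change of Nrp1 came to 0.35 (SE 0.0847, adjusted p = 0.0196). Nrp2 measured 2.88 ± 0.304 RPKM in the Control libraries against 3.14 ± 0.177 RPKM in OIR, with overlapping groups and a 95% interval of the log2 fold change from -0.10 to 0.29. The ratio of Nrp1 to Nrp2 was 0.487 ± 0.0528 in Control and 0.652 ± 0.0394 in OIR (exact permutation p of 0.1, adjusted 0.117). The call of Nrp1 ended without Control 1, Control 2, OIR 1 or OIR 3, at adjusted p of 0.0601, 0.0609, 0.0986 and 0.060, with log2 fold changes of 0.30 to 0.39 over the 6 fits that each left out a library.

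Sema3a, the gene of a repellent ligand made by retinal ganglion cells, was below the level for testing. It measured 0.948, 0.767 and 0.897 RPKM in the Control libraries against 0.476, 0.648 and 0.535 RPKM in OIR 1, OIR 2 and OIR 3, with 229 to 459 reads per library behind the values. All 3 OIR values were below all 3 Control values, and OIR 2 was the nearest to Control. On recovered reads, with limma-voom over the 15611 genes with at least 30 reads in all, Sema3a fell by a log2 fold change of -0.66 (SE 0.148, adjusted p = 0.0110). In that fit 10.8% of genes were higher and 6.66% lower. With no filter on the RPKM values Sema3a did not pass, at an adjusted p of 0.0604. The ratio of Nrp1 to Sema3a was 1.61 ± 0.154 in Control and 3.79 ± 0.897 in OIR (exact permutation p of 0.1, adjusted 0.117).

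**Figure D2:**
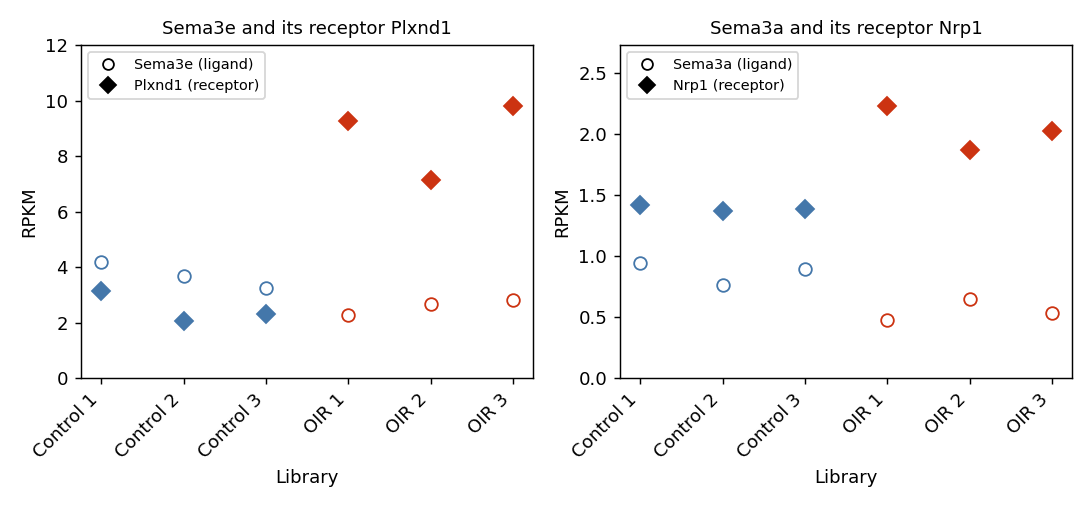
RPKM in each of the 6 libraries for a ligand (open circles) and a receptor (filled diamonds), Sema3e with Plxnd1 on the left and Sema3a with Nrp1 on the right, Control in blue and OIR in red. Sema3e lies above Plxnd1 in the Control libraries and below it in the OIR libraries, and Nrp1 and Sema3a lie farther apart in OIR than in Control.

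The secreted class 3 ligands split in direction. In all 7 the groups did not overlap, with Sema3b, Sema3f and Sema3g higher and Sema3a, Sema3c, Sema3d and Sema3e lower in OIR. The groups did not overlap in 38.7% of all genes tested and in 32.7% of the 17953 genes above 0, tested or not. Only 3 of the 7 reached the level for testing. Sema3f, whose product repels vessels and axons through Nrp2, was the highest ligand per length, at 23.8, 25.3 and 23.4 RPKM in Control and 35.2, 32.5 and 32.8 RPKM in OIR. Its log2 fold change came to 0.45 (SE 0.0651, adjusted p = 0.00187). Sema3f made up 72.6% ± 0.433 of the summed class 3 RPKM in Control and 75.9% ± 2.73 in OIR, with overlapping groups, while the share of Sema3e was 11.1% ± 1.41 and 5.85% ± 0.699. The ratio of the receptor gene Nrp2 to Sema3f was 0.119 ± 0.0105 in Control and 0.0936 ± 0.00515 in OIR, without overlap (exact permutation p of 0.1, adjusted 0.117). Sema3b, the gene of another secreted ligand that signals through neuropilins, measured 2.63, 3.17 and 2.88 RPKM in the Control libraries against 5.75, 4.72 and 7.53 RPKM in OIR. The OIR values of Sema3b were spread widely and all lay above Control, with a ratio of means of 2.07 and a log2 fold change of 0.83 (SE 0.133, adjusted p = 0.00407). Sema3b and Sema3f were called without each library in turn, at adjusted p of at most 0.0248 and 0.0149.

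The lower-level class 3 genes had few reads. Sema3g, the gene of a ligand made by vessels, measured 0.577, 0.666 and 0.536 RPKM in the Control libraries against 0.950, 1.14 and 0.804 RPKM in OIR, and rose on recovered reads by a log2 fold change of 0.68 (adjusted p = 0.0422). Sema3d measured 0.441 ± 0.0399 RPKM in the Control libraries against 0.159, 0.337 and 0.229 RPKM in OIR 1, OIR 2 and OIR 3. It fell on recovered reads by a log2 fold change of -0.93 (adjusted p = 0.0405), from 39 to 114 reads per library. Sema3c measured 0.374, 0.642 and 0.799 RPKM in the Control libraries against 0.273, 0.342 and 0.340 RPKM in OIR, with Control 1 close to the OIR values, and did not pass on recovered reads, at an adjusted p of 0.0818. Without a filter on the RPKM values the adjusted p of Sema3c, Sema3d and Sema3g were 0.118, 0.0637 and 0.0626, so none of these 3 passed. In the RefSeq gene order of GRCm38.p6, Sema3d and Sema3a are neighbours with 0 protein-coding genes between them, 3 such genes lie between Sema3a and Sema3e and 15 between Sema3e and Sema3c. Of these 4 genes, which lie along the same chromosome, only Sema3e reached the level for testing, and it was called lower. On recovered reads with the minimum of 30, Sema3a, Sema3d and Sema3e were lower, and Sema3c passed in no fit. Sema5a and Plxnc1, whose OIR values also lay below Control, are not among these neighbours. Sema3b and Sema3f, both called higher, have 3 protein-coding genes between them.

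**Figure D3:**
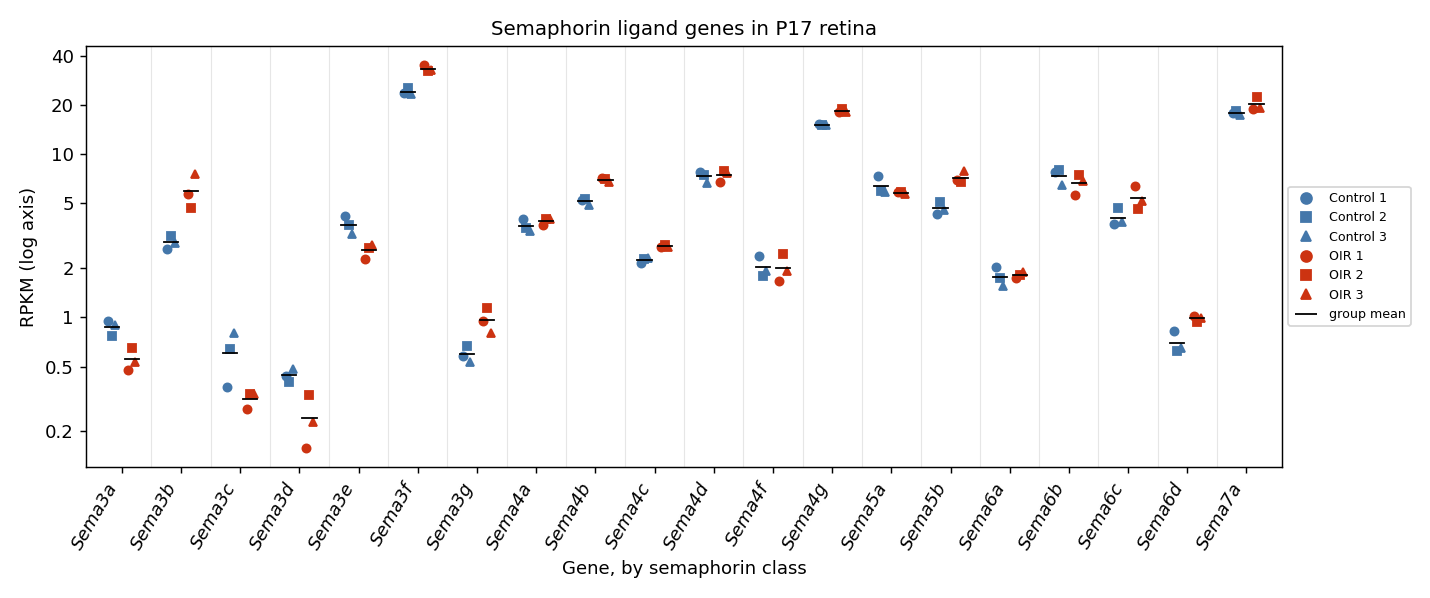
RPKM of the 20 semaphorin genes on a log axis, Control in blue and OIR in red, with a symbol for each replicate number and a bar at the group mean. In the 7 class 3 genes on the left the groups do not overlap, with Sema3b, Sema3f and Sema3g above Control and Sema3a, Sema3c, Sema3d and Sema3e below it.

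Among the transmembrane class 4 ligands, which mostly signal through B-type plexins, 2 of 6 rose and the other 4 did not pass. Sema4b measured 5.24, 5.29 and 4.88 RPKM in the Control libraries against 7.15, 7.05 and 6.75 RPKM in OIR, for a log2 fold change of 0.38 (SE 0.0727, adjusted p = 0.00739). Sema4g measured 15.34, 15.08 and 15.03 RPKM in the Control libraries against 18.1, 18.8 and 18.3 RPKM in OIR, for a log2 fold change of 0.26 (adjusted p = 0.0162). Both genes had narrow groups that stood clear of each other. The call of Sema4g ended without Control 1, Control 2, OIR 1 or OIR 3, at adjusted p of 0.0562, 0.0513, 0.0628 and 0.0626, and that of Sema4b held in every such fit.

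Sema4c measured 2.25 ± 0.0825 RPKM in the Control libraries against 2.73 ± 0.0442 RPKM in OIR, also without overlap, and did not pass, at an adjusted p of 0.0983. On recovered reads, over the same genes, its adjusted p was 0.0494, where 12% of genes were higher and 8.12% lower, and with the wider set of genes it was 0.0543. Sema4d, whose product CD100 binds Plexin-B1, was at 7.32 ± 0.586 and 7.45 ± 0.598 RPKM, with an interval of the log2 fold change from -0.17 to 0.21. Sema4a and Sema4f had log2 fold changes of 0.08 and -0.01 with overlapping groups, from -0.11 to 0.26 and from -0.26 to 0.24.

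The class 5 ligands, which keep neurites of the inner retina in their layer, differed from each other. Sema5b measured 4.31, 5.11 and 4.55 RPKM in the Control libraries against 6.93, 6.77 and 7.88 RPKM in OIR, for a log2 fold change of 0.53 (SE 0.0863, adjusted p = 0.00355). Sema5a measured 7.35, 5.98 and 5.90 RPKM in the Control libraries against 5.84, 5.89 and 5.69 RPKM in OIR, with an adjusted p of 0.381 and an interval from -0.31 to 0.08. In Control Sema5a was above Sema5b in each library, and in OIR below it. The call of Sema5b held without each library in turn, at adjusted p of at most 0.0207.

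With limma 0 of the 3 tested class 6 ligands passed, 1 of them, Sema6c, had an unadjusted p under 0.05, and 0 passed on recovered reads. This class takes part in the layering of neuronal processes through A-type plexins. Sema6c measured 4.09 ± 0.519 RPKM in the Control libraries against 5.42 ± 0.928 RPKM in OIR, with an adjusted p of 0.0666, which was 0.0135 without OIR 2. Without both lens-rich libraries Sema6c and Sema6b passed, at 0.0404 and 0.0393, Sema6b with a log2 fold change of -0.30. Sema6b was at 7.39 ± 0.826 and 6.63 ± 0.934 RPKM, and Sema6a at 1.78 ± 0.239 and 1.82 ± 0.0737 RPKM, with intervals of the log2 fold change from -0.37 to 0.10 and from -0.18 to 0.22. Sema6d, below the level for testing, measured 0.823, 0.624 and 0.649 RPKM in the Control libraries against 1.03, 0.938 and 0.998 RPKM in OIR. It rose on recovered reads, by a log2 fold change of 0.51 (adjusted p = 0.0116), and did not pass on RPKM values with no filter, at 0.0853. The lengths by which the deposited values were divided came out at 31115 bases for Sema6a and 20389 for Sema6d. The other members came out at 2916 to 14766 bases. With such lengths the levels of Sema6a and Sema6d stand low for the same number of reads. Their exons cover 8778 and 10559 bases in GENCODE M21, so these lengths and the reads recovered with them are uncertain. By a smaller margin, the lengths of Sema4c, Plxnb1, Sema3f, Sema6b, Plxnb2 and Sema3g also exceeded their exon bases. For Sema4c it was 7045 against 4593 bases. Of all members, only Sema3e and Plxnd1 had a length equal to that of a GENCODE M21 transcript. The doubt therefore extends to other recovered reads and levels per length. Sema7a, the gene of the membrane-anchored class 7 ligand that binds Plexin-C1 and integrins, measured 17.8, 18.3 and 17.5 RPKM in the Control libraries against 19.0, 22.4 and 19.2 RPKM in OIR. The groups of Sema7a did not overlap, and its adjusted p was 0.155.

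Both B-type plexins that could be tested rose. Plxnb2, the receptor gene with the highest level per length, measured 15.4, 16.1 and 15.8 RPKM in the Control libraries against 21.6, 19.7 and 23.0 RPKM in OIR 1, OIR 2 and OIR 3, for a log2 fold change of 0.42 (SE 0.0721, adjusted p = 0.00469). Plxnb1, the gene of the Sema4D receptor, measured 9.5, 9.31 and 9.37 RPKM in the Control libraries against 12.7, 11.5 and 11.5 RPKM in OIR, for a log2 fold change of 0.31 (SE 0.0688, adjusted p = 0.0127). For both genes the Control libraries lay close together and below every OIR library. Without OIR 1 the call of Plxnb1 ended, at an adjusted p of 0.0758, while that of Plxnb2 held without each library in turn. Plxnb3 had 0 to 4 reads per library, a level at which no difference could be detected.

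Of the 4 A-type plexins, the partners of neuropilins for class 3 signals and the receptors of class 6, only Plxna2 passed, close to the threshold. It measured 13.7, 13.9 and 10.8 RPKM in the Control libraries against 16.4, 14.6 and 17.4 RPKM in OIR, with Control 3, the lens-rich library, the lowest. Its log2 fold change came to 0.32 (SE 0.101, adjusted p = 0.0484), and was 0.21 without Control 3, at an adjusted p of 0.0928. The call of Plxna2 also ended without Control 1, Control 2, OIR 1 or OIR 3, at 0.0793, 0.0537, 0.153 and 0.160, with upper-quartile scaling, at 0.0509, and with no filter, at 0.107. Plxna1 was at 10.6 ± 0.50 and 10.3 ± 0.706 RPKM, with an interval of the log2 fold change from -0.21 to 0.12, and 10.7% of its exon bases in GENCODE M21 also belong to an antisense gene. Plxna4 was at 2.72 ± 0.175 and 2.48 ± 0.111 RPKM with overlapping groups. Plxna3 was at 2.0 ± 0.249 and 2.56 ± 0.0867 RPKM without overlap, at an adjusted p of 0.0714, which was 0.0334 on recovered reads.

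Plxnc1, the Sema7A receptor gene, measured 4.51, 3.81 and 3.49 RPKM in the Control libraries against 3.03, 3.43 and 2.96 RPKM in OIR 1, OIR 2 and OIR 3. The groups did not overlap, OIR 2 was just below Control 3, and the log2 fold change of -0.25 did not pass, at an adjusted p of 0.0914. It passed without OIR 2, at 0.0474, without both lens-rich libraries, at 0.0182, and on recovered reads of the same genes, at 0.0473, but not over the wider set, at 0.0523. Within the summed RPKM of the 9 plexins, Plxnd1 took 4.16% ± 0.806 in Control and 11.3% ± 1.34 in OIR, and Plxna1 took 17.8% ± 0.20 and 13.5% ± 1.53. The shares of Plxnb2 and Plxna2 overlapped between the groups.

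**Figure D4:**
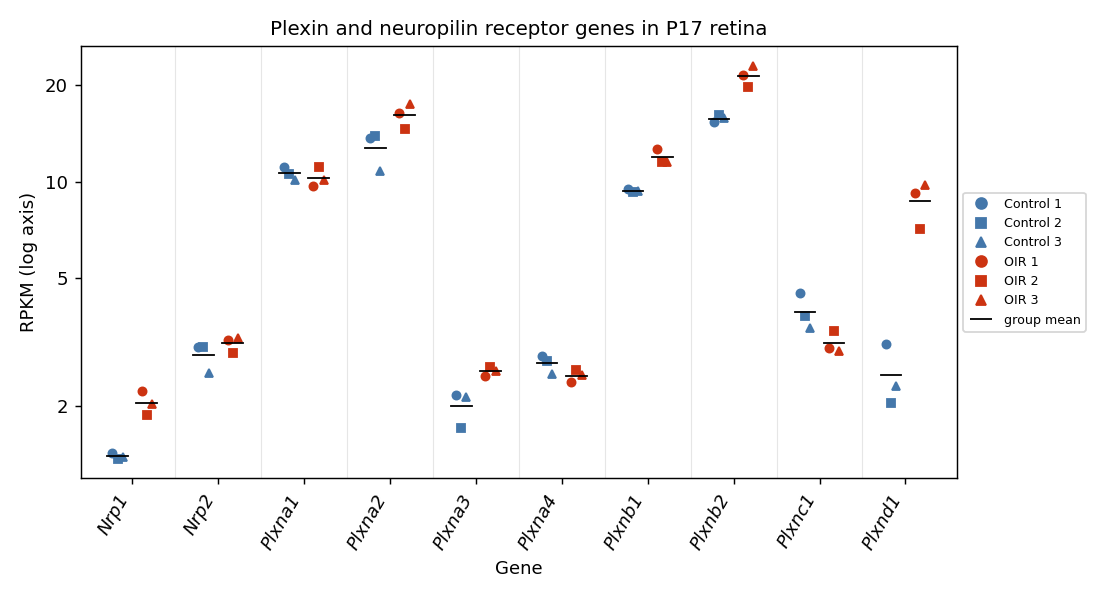
RPKM of the plexin and neuropilin genes on a log axis, Control in blue and OIR in red, with a symbol for each replicate number and a bar at the group mean; Plxnb3, with 0 to 4 reads per library, is not drawn. Plxnd1 shows the widest gap between the groups, from 3.12 to 7.12 RPKM.

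Of 13 tested co-receptor genes 7 were higher and 1 was lower, beside 11.6% and 7.22% of all genes tested, with a median log2 fold change of 0.35. Tyrobp and Trem2, whose products pair with Plexin-A1 in myeloid cells, rose together. Tyrobp went from 3.0 ± 0.371 to 9.67 ± 0.404 RPKM and Trem2 from 1.32 ± 0.198 to 4.46 ± 0.778 RPKM. Their log2 fold changes were 1.42 and 1.23, at adjusted p of 1.04e-05 and 0.000166. Tyrobp is also counted in the microglia and macrophage list below. Kdr, the gene of the growth factor receptor that pairs with Nrp1, rose from 25.7 ± 1.99 to 33.1 ± 1.17 RPKM, at an adjusted p of 0.00917, and Erbb2, a partner of B-type plexins, from 1.08 ± 0.0826 to 1.86 ± 0.0654 RPKM, at 0.00609. The integrin genes Itga1 and Itgb1 also rose, with ratios of 2.66 and 1.38. The adhesion gene Chl1 also passed, named after its values were seen, at 1.24 ± 0.304 and 2.02 ± 0.279 RPKM. Nrcam, an adhesion gene that joins Nrp2 complexes, fell from 12.8 ± 0.929 to 10.6 ± 0.360 RPKM. Flt1 was at 5.05 ± 0.522 and 6.05 ± 0.451 RPKM and did not pass, at an adjusted p of 0.103.

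Of 37 genes that act at or below plexins, 6 were higher, 1 was lower and 30 did not pass, with a median log2 fold change of -0.04. These are 16.2% and 2.70% of the list, near the 11.6% and 7.22% of all genes tested, so the genes below are given as values and not as a change of the list. Rras, the small GTPase that plexins switch off, measured 6.36 ± 0.365 RPKM in the Control libraries against 14.0 ± 3.85 RPKM in OIR, at an adjusted p of 0.0170. The guanine nucleotide exchange factor gene Farp1 rose from 5.17 ± 0.157 to 7.46 ± 0.568 RPKM, the integrin linker gene Tln1 from 7.60 ± 0.349 to 10.9 ± 0.963 RPKM, and the kinase gene Fes from 0.683 ± 0.0774 to 1.35 ± 0.112 RPKM. The collapsin response mediator gene Dpysl3 rose from 66.9 ± 6.31 to 80.5 ± 1.06 RPKM. The MICAL oxidoreductase genes split, with Mical1 higher, at a ratio of 1.77, and Mical2 lower, at 0.714.

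Cell type markers are given beside these genes. Over all genes tested 11.6% were higher and 7.22% lower, and the counts of every marker list, here and below, stand beside these shares. Of 14 tested endothelial markers 13 were higher, and their summed level was 48.5 to 50.2 RPKM in Control and 101.7 to 114.3 RPKM in OIR. The defining markers Pecam1 and Cdh5 had ratios of 2.19 and 3.10, while Tek was at 1.38 ± 0.143 and 1.30 ± 0.195 RPKM. Against 100 RPKM of summed endothelial markers, Plxnd1 stood at 5.05 ± 1.05 RPKM in Control, which compares with 8.14 ± 1.16 RPKM in OIR. Nrp1 stood at 2.83 ± 0.0275 and 1.91 ± 0.0571 RPKM. The groups did not overlap in either ratio, with Plxnd1 higher and Nrp1 lower in OIR (exact permutation p of 0.1 each, adjusted 0.117). Sema3g on this scale was at 1.21 ± 0.138 and 0.904 ± 0.187 RPKM with overlapping groups (exact permutation p of 0.2). The sum, at a ratio of 2.18, is weighted to its highest genes. Ratios of single endothelial markers ran from 0.940 for Tek to 3.97. The ratio of 3.50 of Plxnd1 lay within this range, near its upper end and above most of these markers. Apart from the permutation of its ratio to the marker sum, a rise of Plxnd1 beyond that of endothelial cells was not tested.

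Microglia and macrophage markers were higher in 11 of 13 tested, with a summed level of 59.0 to 65.1 RPKM in Control and 132.3 to 175.3 RPKM in OIR, and the defining markers Csf1r, C1qa and Cx3cr1 had ratios of 2.18, 3.74 and 2.39. Pericyte and smooth muscle markers were higher in 7 of 10 tested, from 33.6 to 58.3 RPKM in sum in Control and 83.2 to 108.8 RPKM in OIR. Among the defining markers of that list, Pdgfrb and Rgs5 had ratios of 1.64 and 2.38, and Acta2 did not pass. Of 5 tested astrocyte markers 2 were higher, with 23.8 to 29.0 RPKM in sum in Control and 50.3 to 101.6 RPKM in OIR. Most of that rise was Gfap, a filament gene that reactive Müller glia also express, at 7.25 ± 1.49 and 54.5 ± 23.8 RPKM. Without Gfap the astrocyte sum was 18.1 to 20.4 RPKM in Control and 21.7 to 27.5 RPKM in OIR. The part of these cell types in the rise of Plxnd1, Nrp1 and the other higher members was not tested.

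Ganglion cell markers were lower in 5 of 14 tested, where 7.22% of all genes tested were lower. Their summed level was 911 to 1012 RPKM in Control and 577 to 866 RPKM in OIR, the highest OIR value in OIR 2. The defining ganglion cell markers Rbpms, Pou4f1 and Pou4f2 had ratios of 0.944, 0.823 and 0.672 and adjusted p of 0.576, 0.222 and 0.0795. Amacrine markers were lower in 10 of 12 tested, from 828 to 920 RPKM in sum in Control to 569 to 770 RPKM in OIR, with ratios of 0.635, 0.731 and 0.729 for Gad1, Slc6a9 and Tfap2a. OIR 2 was also the OIR library with the highest Sema3a and Sema3d and the lowest Plxnd1, Nrp1 and Plxnb2. Other members did not follow this order: Sema3e was highest in OIR 3, and Sema3g was highest in OIR 2. Bipolar markers were lower in 5 of 13 tested, with 632 to 742 RPKM in sum in Control and 586 to 630 in OIR. Horizontal cell markers were lower in 1 of 4 tested, with 76.4 to 84.2 and 53.0 to 64.7 RPKM in sum. Without Calb1, the gene that was called, the horizontal sums were 35.2 to 36.4 and 29.3 to 33.5 RPKM. The defining horizontal cell markers Lhx1 and Onecut1 had ratios of 0.853 and 1.13 and did not pass. Müller glia markers were lower in 6 and higher in 3 of 12 tested, with 2425 to 2521 RPKM in sum in Control and 2182 to 2290 in OIR. Without Glul, which fell, the Müller sums overlapped, at 1141 to 1252 RPKM in Control and 1121 to 1340 RPKM in OIR. Rod and cone markers were higher in 3 and lower in 1 of 14 tested. These are 21.4% and 7.14%, near the 11.6% and 7.22% of all genes tested, and are not read as a change of the list. With limma 0 of 5 tested pigment epithelium markers and 0 of 20 tested lens markers passed, 2 and 0 had an unadjusted p under 0.05, and 0 of either passed with limma-voom. No defining marker of any list was at 0 in all libraries. The part of these neuronal markers in the lower values of Sema3e, Sema3a and Sema3d was not tested.

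**Figure D5:**
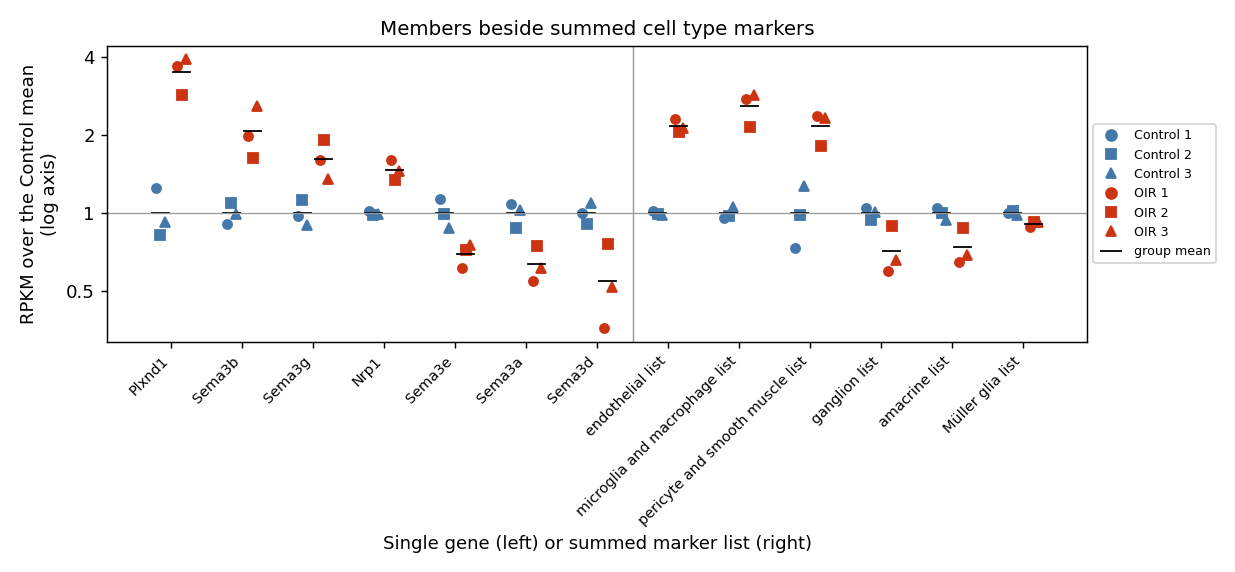
Each library's RPKM over the Control mean, on a log axis, for 7 members on the left and for 6 summed marker lists on the right, Control in blue and OIR in red, with bars at the group means. Plxnd1, Sema3b, Sema3g, Nrp1 and the endothelial, microglial and pericyte lists lie above Control in every OIR library, and Sema3e, Sema3a, Sema3d and the ganglion, amacrine and Müller lists lie below it, the Müller list only with Glul in the sum.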

How the data were processed

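The deposited files hold 1 RPKM value per gene symbol and library. Bowtie2 2.0.6 and TopHat2 2.0.12 are listed, per the submitters' processing notes. How the reads were counted, on which genome build and gene models, is not given in the sources used here. The library protocol in the labels describes another species, so library type and strand are uncertain, and 7 members share exon bases with another gene in GENCODE M21.

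Testing was limited to genes that reached 1 RPKM in 3 or more libraries. The logarithm log2(RPKM + 1) was fitted with limma 3.58.1 in R 4.3.3 (trend and robust options) with a term for group and no other, two-sided, with Benjamini-Hochberg adjustment over all 12112 genes and a threshold of 0.05. Fold changes on this scale understate those of low genes. The fit was tested on simulated reads. These gave every gene the same relative spread beyond sampling noise and held no lens-rich library, so that test does not cover such differences between libraries. Whole reads were recovered from the steps of the values (99.9% of 17953 genes within 0.02 of a read) and tested with limma-voom, an alternative chosen after seeing the data, as were its minimum of 30 reads and the marker sums without the gene of the largest difference. Replicates of a group differed by more than sampling noise. Named were all members and, from each pathway list, up to 6 genes in each direction by adjusted p with Kdr, Flt1 and Tyrobp. Of the marker lists, defining markers were named, and also Calb1, as the gene left out of a sum. The level of 1 marker is not reported here. Alternatives were other scalings, pseudocounts and filters, the replicate block and leaving out libraries. The libraries held 35615501 to 38025623 reads. Members and lists were chosen with earlier results of these data known.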

Additional observations from a re-analysis of the deposited data

How the results depend on the processing

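No member that passed in any fit changed direction in another. With a fold change of at least 2 asked beside the adjusted p, 0 ligands were higher, 0 lower and 1 receptor higher. With no filter 0 ligands were lower. Without both lens-rich libraries 2 ligands and 1 receptor were lower, and on recovered reads 1 receptor was lower, or 3 ligands with the minimum of 30 reads. When each library was left out in turn, 4 to 6 ligands and 2 to 5 receptors were higher, and 0 to 1 ligands and 0 to 1 receptors lower. Over all genes, median-of-ratios scaling called 1283 higher and 1312 lower, against 1407 and 875, and a block for the replicate number 1222 and 809. Same-numbered libraries deviated with correlations of 0.22, -0.44 and -0.41. The highest correlation, 0.49, was between Control 3 and OIR 2, both lens-rich, so this check cannot tell whether the numbers pair libraries. With the replicate block 5 ligands were higher and 1 lower, and 4 receptors were higher and 0 lower, since Plxna2 did not pass (adjusted p = 0.0762 with limma). Leaving out each library in turn gave 513 to 1754 higher and 212 to 1293 lower genes, no filter 1209 and 529, and leaving out both lens-rich libraries 2094 and 1943. The 6 members that were not tested rest on at most 774 reads per library. Reads alone did not set this, since the level for testing also depends on gene length. Sema4f was tested with 309 to 450 reads, and Sema6d was not with 471 to 774.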
